A study of Mus musculus with 2 samples.

Results

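The PI3K, AKT, GSK3 and mTOR kinases were examined at the level of RNA in MCMs, mouse cardiomyocytes that were purchased as cultured cells, after knockdown of *Ppp2r5d*. The group holds 8 genes, *Pik3ca*, *Akt1*, *Akt2*, *Gsk3a*, *Gsk3b*, *Mtor*, *Rptor* and *Rictor*. They were found by their names in the scanner files and are represented by 25 of the 56605 probes, and are 8 of the 37074 gene names, on a one-colour microarray. A culture of MCMs in DMEM with 2% FBS received siRNA-NC, a negative control, or siRNA-*Ppp2r5d*, an siRNA against *Ppp2r5d*, with a lipid transfection reagent. At 48 h the medium of both cultures was replaced with one that lacks glucose, and RNA was taken at 64 h. Neither ISO nor a genotype or age is given in the labels of these samples. Each group had 1 array, so the differences below could not be checked against replicates or given a p-value. Nothing in these arrays gives the phosphorylation or the activity of a kinase.

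In this pathway, receptors for insulin and growth factors recruit PI3K, whose lipid product brings AKT to the membrane. AKT is then phosphorylated, in part by mTOR complex 2, and phosphorylates targets that include GSK3, FOXO factors and inhibitors of mTOR complex 1. Protein phosphatase 2A is among the phosphatases that remove phosphate from AKT, and *Ppp2r5d* encodes one of its B′ regulatory subunits. In heart muscle the pathway is known for its part in cell growth, glucose uptake and survival.

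Of the 25 probes, 16 were designed on a RefSeq transcript, 5 on an Ensembl transcript and 4 on a cDNA clone. By the scanner files, 3 probes cross an exon junction, since their interval on mouse build mm9 is longer than the probe. These are shown because a probe that crosses a junction reads spliced RNA, together with the *Rictor* probe on a RefSeq transcript that had the highest log2 fold change of that gene. Capitals mark the start codon in *Akt1*, the codons of the Asp-Phe-Gly motif of the kinase domain in *Gsk3b* and the hexamer AATAAA in *Rictor*. The *Akt2* probe has no capitals.
Akt1, chr12:113900509-113909775, minus strand: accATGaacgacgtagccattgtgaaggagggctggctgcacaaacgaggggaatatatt
Akt2, chr7:28421973-28422113, plus strand: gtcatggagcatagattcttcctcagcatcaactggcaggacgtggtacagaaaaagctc
Gsk3b, chr16:38187987-38191632, plus strand: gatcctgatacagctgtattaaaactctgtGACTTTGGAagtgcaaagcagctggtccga
Rictor, chr15:6709565-6709624, plus strand: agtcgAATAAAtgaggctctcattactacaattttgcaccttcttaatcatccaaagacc
AATAAA, written on the strand of the RNA, is the usual signal for the addition of a poly(A) tail near the end of a transcript. It was present in 7 of the 25 probes, or 28.0%, against 9.77% of all probes, which is a count of letters and not of signals that are used. The *Rictor* probe shown lies at position 682 of its transcript and another *Rictor* probe at 8328. The hexamer marked in *Rictor* is therefore not near the end of the transcript.

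The target of the siRNA was lower on the array that its label predicts. *Ppp2r5d* had an intensity of 4701 with siRNA-NC and 676 with siRNA-*Ppp2r5d*, a log2 fold change of -2.60. The arrays were on 1 slide and were scanned on 1 day. The intensities of each array were divided by their 75th percentile over all probes, 592.7 with siRNA-NC and 518.6 with siRNA-*Ppp2r5d*. A probe with equal intensities on both arrays therefore has a log2 fold change above 0, and 21 of the 24 probes used for the 8 genes had the lower intensity with siRNA-*Ppp2r5d* before this step. The cell type in the label was checked against marker genes. Of 16 cardiomyocyte markers, 10 were well above background with siRNA-NC and 12 with siRNA-*Ppp2r5d*, at summed intensities before scaling of 10819 and 10023. *Actc1* alone gave 6443 and 5268 of these sums. *Ttn*, *Nkx2-5*, *Tnnt2*, *Gata4* and *Tnnc1* stood at 1110, 1078, 858, 640 and 488 with siRNA-NC. Others were dim, with *Myh7*, *Tnni3*, *Myl3* and *Nppa* at 48.1, 54.1, 40.4 and 16.6 with siRNA-NC. *Myl2*, *Myl7*, *Actn2* and *Pln*, which encode proteins of the sarcomere and of calcium handling in heart muscle, were above background on neither array. All 8 fibroblast markers were well above background on both arrays, at unscaled sums of 388676 and 370664, as were all 4 smooth muscle markers, at 141925 and 129727. These sums are over different probes and do not compare one cell type with another. After scaling, log2 fold changes had a median of 0.16 over the 10 cardiomyocyte markers measured on both arrays, 0.036 over the fibroblast markers and 0.41 over the smooth muscle markers. Markers of 1 type did not move together. They ran from -0.19 for *Tnni3* to 0.90 for *Myl3* in cardiomyocytes, from -0.31 for *Col1a2* to 1.08 for *Lum* in fibroblasts, and from -0.38 for *Myh11* to 2.41 for *Cnn1* in smooth muscle. Of 4 endothelial markers, 1 was well above background with siRNA-NC and 2 with siRNA-*Ppp2r5d*, with *Cdh5* and *Kdr* on neither, and of 4 macrophage and leukocyte markers 3 were on both and *Adgre1* on neither. The part of cell type in the values below was not tested, and in bulk RNA fewer cells of a type and less RNA per cell cannot be told apart.

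None of the 8 genes differed 2-fold or 1.5-fold between the arrays. Over the 21701 genes that were above background on 1 array or both, 2.53% differed at least 2-fold, 1.07% being higher with siRNA-*Ppp2r5d* and 1.46% lower, and 9.27% differed at least 1.5-fold. With 8 genes, a count of 0 is close to what these shares would give. The share of the 2-fold genes that was lower depended on the processing, at 57.6% as given here, 82.3% with scaling to spike-in probes and 40.2% with normexp background correction. The median log2 fold change of the 8 genes was -0.0017, and their values ran from -0.13 for *Pik3ca* to 0.23 for *Mtor*. Over the 20350 genes measured on both arrays the median was 0.026, and the quartiles were -0.15 and 0.18. Hence 7 of the 8 genes lay between the quartiles of all genes, with *Mtor* above the upper one.

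**Figure D1:**
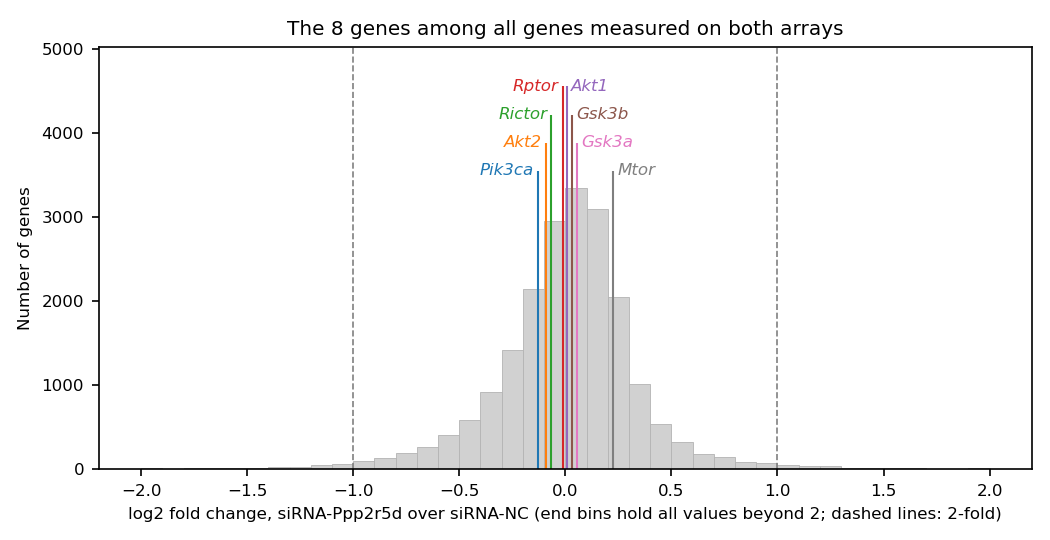
Histogram of the log2 fold change, siRNA-*Ppp2r5d* over siRNA-NC, of the 20350 genes measured on both arrays (bars, number of genes per bin of 0.1), with a line at the value of each of the 8 genes. All 8 lines fall in the body of the distribution, from -0.13 to 0.23, and far inside the dashed lines at 2-fold.

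The only errors that 2 arrays give are technical. The scanner software states an error for each spot, which came to between 0.20 and 0.31 on the log2 fold change of the 24 probes. This error hardly varied among bright probes, at 0.204 for both the brightest *Akt1* and the brightest *Gsk3b* probe. It is thus read here as a level set by the software and not as a spread seen in these spots. The error of a mean below follows mainly from the number of probes and leaves out their disagreement. Spots of the same probe differed with a median SD of 0.036 over 293 probes. Probes of the same gene differed by a median of 0.20 over 7167 genes with more than 1 usable probe. The value of a gene below is the mean over its usable probes, those well above background in both groups, with the stated error of that mean, which takes the errors of the probes as independent. None of these covers the difference between cultures. The share of all probes or genes that exceed such errors was not taken. Counts past an error below therefore have no such share beside them.

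*Pik3ca*, which encodes the catalytic subunit p110α of PI3K, had 1 probe. Its intensity was 1114 with siRNA-NC and 890 with siRNA-*Ppp2r5d*, a log2 fold change of -0.13 ± 0.20 (error of the scanner software, 1 probe). The difference was smaller than this error. It was the lowest value of the 8 genes, and 27.5% of all genes had a lower one.

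*Akt1*, the AKT isoform known for growth and survival, was read by 3 probes that did not share a direction. The probe with the start codon shown above had an intensity of 373 with siRNA-NC and 370 with siRNA-*Ppp2r5d*, a log2 fold change of 0.18. The second RefSeq probe went from 27116 to 25813, or 0.12, and the probe on an Ensembl transcript from 583 to 421, or -0.28. The mean was 0.0085 ± 0.12 (error of the mean, 3 probes), with an SD between probes of 0.25. The Ensembl probe set this mean near 0, and the 2 RefSeq probes alone gave 0.15.

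*Akt2*, the isoform known for insulin-stimulated glucose uptake, had a log2 fold change of -0.091 ± 0.12 (error of the mean, 3 probes). The probe across an exon junction shown above went from 297 with siRNA-NC to 222 with siRNA-*Ppp2r5d*, or -0.23. Another went from 478 to 404, or -0.052, and the last from 11053 to 9703, or 0.0048. The first of these differed by slightly more than its error of the scanner software, and the others by less. *Akt1* minus *Akt2* was 0.099 ± 0.17 on the log2 scale, so with all usable probes the 2 isoforms were not told apart. This difference does not depend on how the arrays are divided, since any single factor per array cancels from it. It does depend on the probes taken, since with RefSeq probes alone *Akt1* was at 0.15 and *Akt2* at -0.091.

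*Gsk3a* and *Gsk3b* encode the 2 forms of glycogen synthase kinase 3, which AKT inhibits by phosphorylation. *Gsk3a* went from 11325 with siRNA-NC to 10112 with siRNA-*Ppp2r5d* at one probe, a log2 fold change of 0.029, and from 270 to 250 at the other, or 0.081. Its probes lay within 0.052 of each other, the least spread among the genes with several probes, and the mean was 0.055 ± 0.14 (error of the mean, 2 probes). For *Gsk3b*, the probe that covers the Asp-Phe-Gly codons went from 940 to 873, or 0.085. Of its other probes, the one with the highest log2 fold change went from 12179 to 12473, or 0.23, the lowest from 2642 to 2014, or -0.20, and the last from 173 to 152, or 0.0086. The mean of *Gsk3b* was 0.030 ± 0.10 (error of the mean, 4 probes). The range between its probes, 0.43, was near the median of 0.39 over the 620 genes with the same number of usable probes. *Gsk3a* minus *Gsk3b* was 0.025 ± 0.18 on the log2 scale, which does not separate them.

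**Figure D2:**
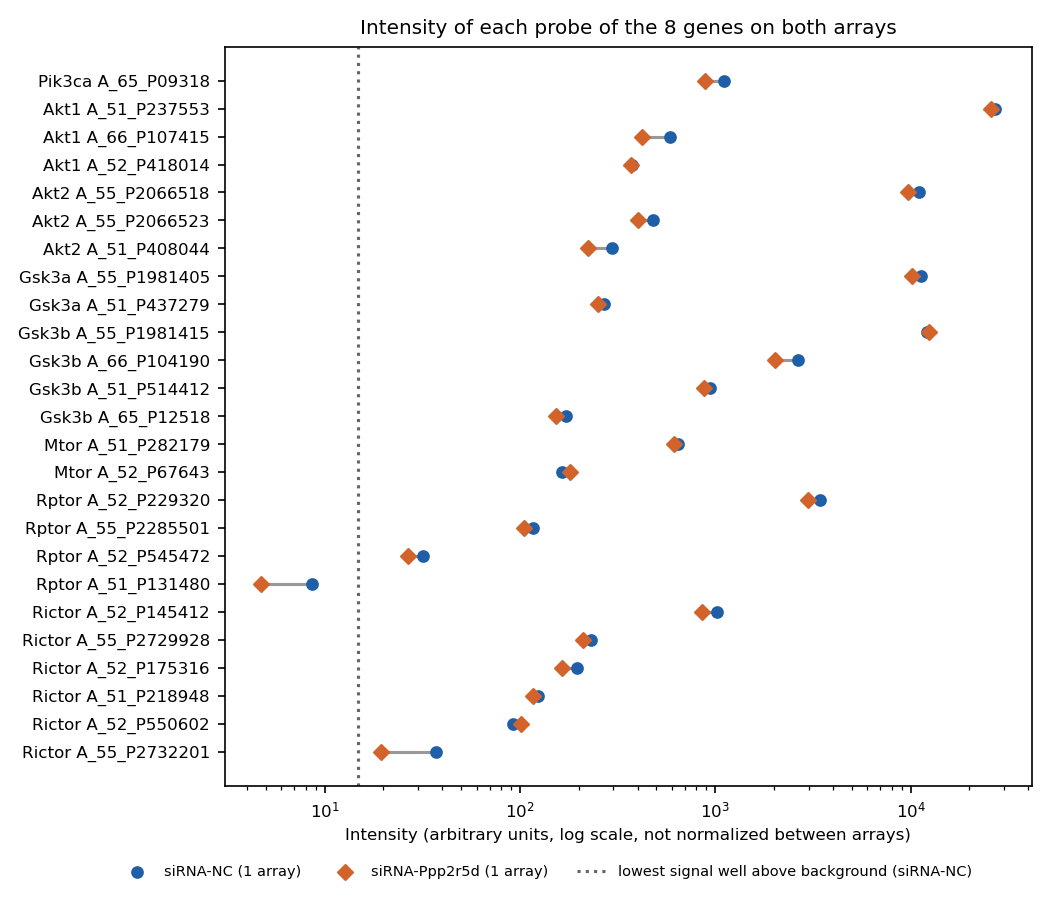
Intensity (arbitrary units, log axis, before any scaling between arrays) of each of the 25 probes on the siRNA-NC array (circles) and the siRNA-*Ppp2r5d* array (diamonds), with the probes sorted by intensity within each gene. The points of a pair lie farthest apart at the dimmest *Rptor* and *Rictor* probes, and 1 *Rptor* probe lies left of the dotted line at 14.9, the lowest signal that counted as well above background with siRNA-NC.

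*Mtor* encodes the kinase that is shared by both mTOR complexes and had the highest value of the 8 genes. Its RefSeq probe went from 646 with siRNA-NC to 617 with siRNA-*Ppp2r5d*, a log2 fold change of 0.13, and its probe on an Ensembl transcript, 102 kb away on build mm9, from 164 to 180, or 0.33. The latter was higher with siRNA-*Ppp2r5d* in intensity as well as after scaling. The mean was 0.23 ± 0.15 (error of the mean, 2 probes), and 80.9% of all genes had a lower value. *Mtor* was the 1 gene of the 8 whose value exceeded its error of the mean, and no gene exceeded 2 such errors. Its value fell to 0.013 with scaling to spike-in probes and to 0.13 when the RefSeq probe was used alone.

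*Rptor* encodes Raptor, the subunit that defines mTOR complex 1 and recruits its substrates. Its RefSeq probe went from 3434 with siRNA-NC to 2984 with siRNA-*Ppp2r5d*, a log2 fold change of -0.010. A probe on a cDNA clone went from 117 to 105, or 0.030, and one on an Ensembl transcript from 31.9 to 26.9, or -0.056. The last, also on an Ensembl transcript, was not well above background on either array, at 8.65 and 4.74, and was left out. The mean was -0.012 ± 0.14 (error of the mean, 3 probes), and it became -0.18 when the dim probe was let in.

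*Rictor* encodes the subunit that defines mTOR complex 2, the complex that phosphorylates AKT, and its 6 probes disagreed the most. The probe shown above went from 92.3 with siRNA-NC to 101 with siRNA-*Ppp2r5d*, a log2 fold change of 0.33. A probe on a cDNA clone went from 37.2 to 19.3, or -0.75, which was the 1 probe among the 24 that differed by more than 2 times its error, here 0.31. The remaining 4 probes lay between -0.065 and 0.11, with intensities from 124 to 1022 on the siRNA-NC array. The range of 1.08 between the probes compares with a median of 0.55 over the 67 genes with the same number of usable probes, of which 95.5% had a smaller range. The mean of *Rictor* was -0.066 ± 0.093 (error of the mean, 6 probes) and was 0.071 over the 5 probes left without the lowest one. The value of *Rictor* was 0.12 with RefSeq probes alone, 0.031 with normexp and 0.0076 at an intensity of at least 100 on both arrays. With the other alternatives it stayed below 0. *Rptor* minus *Rictor* was 0.054 ± 0.17 on the log2 scale. *Mtor* minus *Rictor*, 0.29 ± 0.17, was the largest difference among the mTOR genes, and *Mtor* minus *Rptor* was 0.24 ± 0.20.

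**Figure D3:**
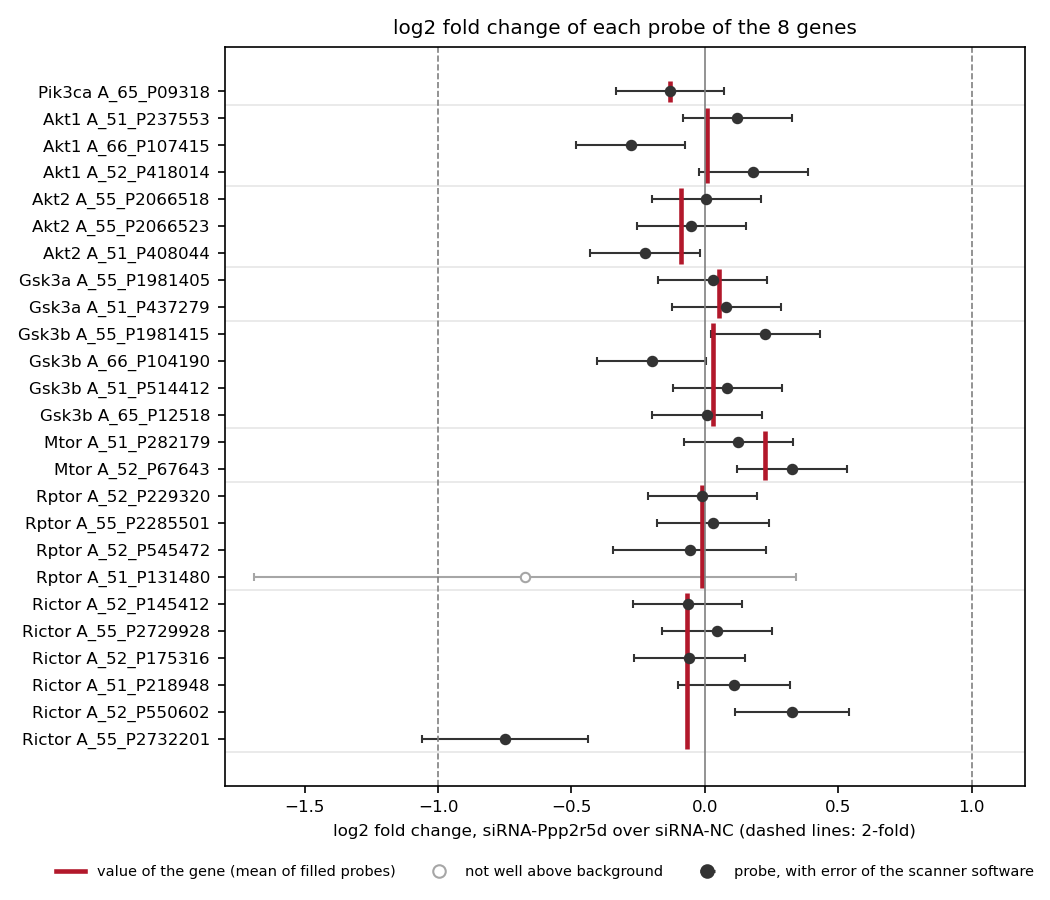
log2 fold change, siRNA-*Ppp2r5d* over siRNA-NC, of each of the 25 probes (points, with the error of the scanner software as bars) and the value of each gene (vertical red lines). The lines for the genes stay between -0.13 and 0.23 while the probes of *Rictor* run from -0.75 to 0.33, and the open point is the *Rptor* probe that was not well above background.

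In order of their values, the genes were *Pik3ca*, *Akt2*, *Rictor*, *Rptor*, *Akt1*, *Gsk3b*, *Gsk3a* and *Mtor*. The largest step between neighbours, 0.17 from *Gsk3a* to *Mtor*, was larger than the error of either gene, 0.14 and 0.15, and smaller than the error of their difference, 0.21. The other steps were smaller than the error of each gene. Of the 24 probes, 10 were lower with siRNA-*Ppp2r5d* and 14 higher, and 6 differed by more than their own error. As given here 4 genes lay below 0 and 4 above, while scaling to spike-in probes put 7 below and cyclic loess 6, and normexp background correction put 6 above. With all the settings tried, *Pik3ca* stayed below 0, between -0.34 and -0.10, and *Mtor* above, between 0.013 and 0.25.

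**Figure D4:**
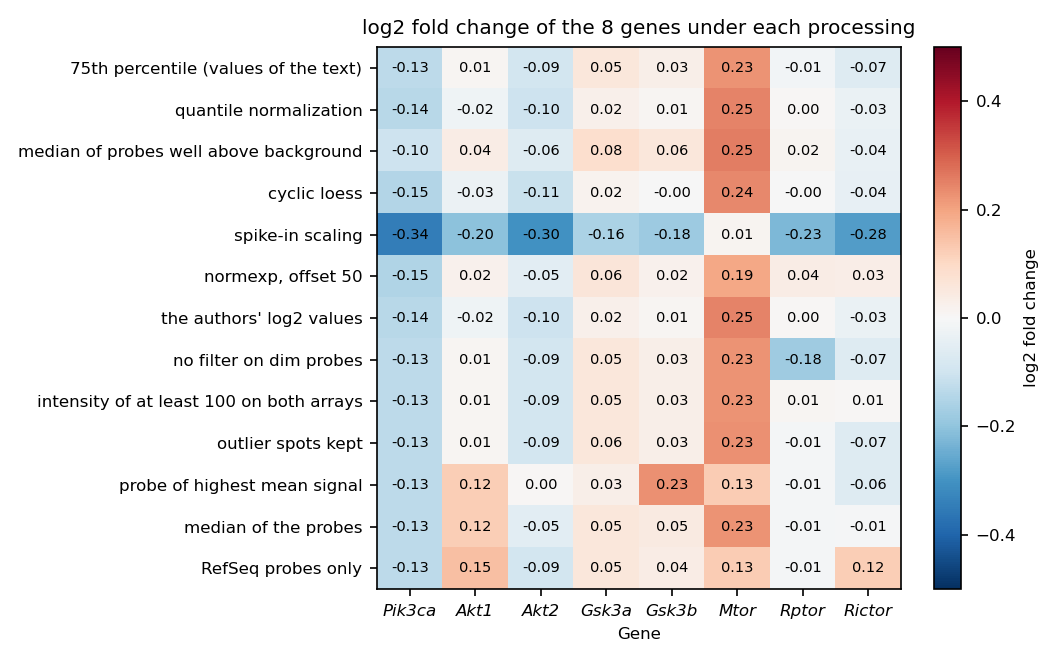
log2 fold change, siRNA-*Ppp2r5d* over siRNA-NC, of the 8 genes (columns) with the values of the text (top line) and with 12 other ways of processing (other lines), coloured from blue (lower) to red (higher). The *Mtor* column is red except with spike-in scaling, where 7 of the 8 genes are blue and *Mtor* is 0.013, and no cell comes near 1, which is 2-fold.

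Around the 8 genes, 150 other genes of the pathway were set out in 10 lists by role. Some genes, such as *Insr*, *Irs2* and *Ddit4*, stand in more than 1 list and count in each. Of these, 142 were above background on 1 array or both, and 141 could be measured on both. None was past 2-fold, against the 2.53% of all genes given above. At 1.5-fold, 5 were higher with siRNA-*Ppp2r5d* and 2 were lower, or 4.93% of the 142, against 9.27% of all genes. The median over the 141 genes was 0.017, with 73 above 0 and 68 below. Neither share was above that of all genes on the same arrays. The count over all genes depends on dim ones, at 549 past 2-fold and 162 at an intensity of at least 100 on both arrays. No share matched for intensity was taken, so the lower shares do not show that the pathway changed less.

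Upstream of AKT, the other PI3K subunits and PI3K-binding proteins had a median log2 fold change of -0.20. Of the 6 measured genes 5 were below 0, against 45.8% of all genes. This median was -0.011 without a filter on dim probes, -0.085 with the probe of highest mean signal and -0.12 with normexp, and with scaling to spike-in probes it fell by 0.21, as did the values of all genes. The lowest was *Pik3cb*, which encodes the catalytic subunit p110β, at -0.34 (-0.21 with normexp), and the highest *Pik3r1*, which encodes the regulatory subunit p85α, at 0.26. *Pik3ca* at -0.13 lay on the same side as the 5. These 5 include *Pik3ip1* at -0.23, which encodes an inhibitor of PI3K and not a subunit, and whose probes gave -0.56 and 0.11. The genes of the subunits p110δ and p110γ, *Pik3cd* and *Pik3cg*, were not well above background on either array. Of 13 receptors and adaptors, 7 were above 0 and 6 below. *Egfr*, the receptor for epidermal growth factor, was the highest, with 0.68 over 4 probes from 0.42 to 0.85, and its intensities at the first probe were 1576 with siRNA-NC and 2240 with siRNA-*Ppp2r5d*. It stood at 0.52 with normexp and 0.47 with scaling to spike-in probes. *Erbb3*, a receptor of the same family, was the lowest, at -0.43 from 1 probe that went from 50.4 to 32.8, and -0.057 with normexp. The receptor *Pdgfra*, which is named because it passed 1.5-fold and was chosen after its values were seen, had 0.63 over 3 probes but 0.27 at its RefSeq probe, and is also one of the 8 fibroblast markers.

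Of the phosphatases that oppose PI3K and AKT, 3 genes were above 0 and 4 below, from *Phlpp1* at -0.18, a phosphatase of AKT, to *Inpp4a* at 0.17, a lipid phosphatase. With scaling to spike-in probes *Inpp4a* was -0.046. *Inpp5d* was well above background with siRNA-NC alone, at 17.6 against 2.82, which gives a bound of at least 1.14-fold lower with siRNA-*Ppp2r5d*. Among 8 partners of AKT, 4 were above 0 and 4 below. The pseudokinases *Trib3* and *Trib2* gave the lowest value, -0.16, and the highest, 0.57, the latter from 1 of 2 probes and turning to -0.060 without a filter on dim probes.

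The other genes listed with the mTOR complexes had a median of -0.10, with 6 of 9 below 0, against 45.8% of all genes. Besides subunits and inhibitors, this list holds *Tti1*, *Tti2* and *Telo2*, which are neither. Its median was -0.056 with normexp and -0.32 with scaling to spike-in probes. *Prr5l*, whose product binds mTOR complex 2, was the lowest gene of all lists. Its probes went from 222 with siRNA-NC to 129 with siRNA-*Ppp2r5d*, a log2 fold change of -0.59, and from 49.3 to 17.4, or -1.31, which gave a mean of -0.95. One more probe, from 3.04 to 14.7, was well above background with siRNA-*Ppp2r5d* alone, and letting it in turned the gene to 0.19, while normexp gave -0.34. *Akt1s1*, which encodes the mTOR complex 1 inhibitor PRAS40, was the highest of this list at 0.39. Of 34 genes of the TSC complex, Rheb, the Rag GTPases and nutrient sensing, 24 were above 0 and 10 below. Over all genes measured on both arrays, 54.2% were above 0. The median of this list, 0.064, became 0.0021 with quantile normalization, -0.0043 with cyclic loess and -0.15 with scaling to spike-in probes. The highest was *Fnip2*, a partner of folliculin, at 0.87. Its usable probes had intensities of 2706 with siRNA-NC and 3992 with siRNA-*Ppp2r5d*, and of 64.9 and 113. Its last probe was not well above background, at 3.02 and 2.72, and letting it in gave 0.60. The lowest was *Castor1*, the arginine sensor that the array names *Gatsl3*, at -0.38 from 1 dim probe that went from 41.8 to 28.0, and at -0.041 with normexp. *Ddit4l*, an inhibitor of mTOR complex 1, was also past 1.5-fold, at 0.69 from 1 probe that went from 1532 to 2156, and is named for that, after its value was seen. With scaling to spike-in probes *Ddit4l* stood at 0.47, short of 1.5-fold.

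**Figure D5:**
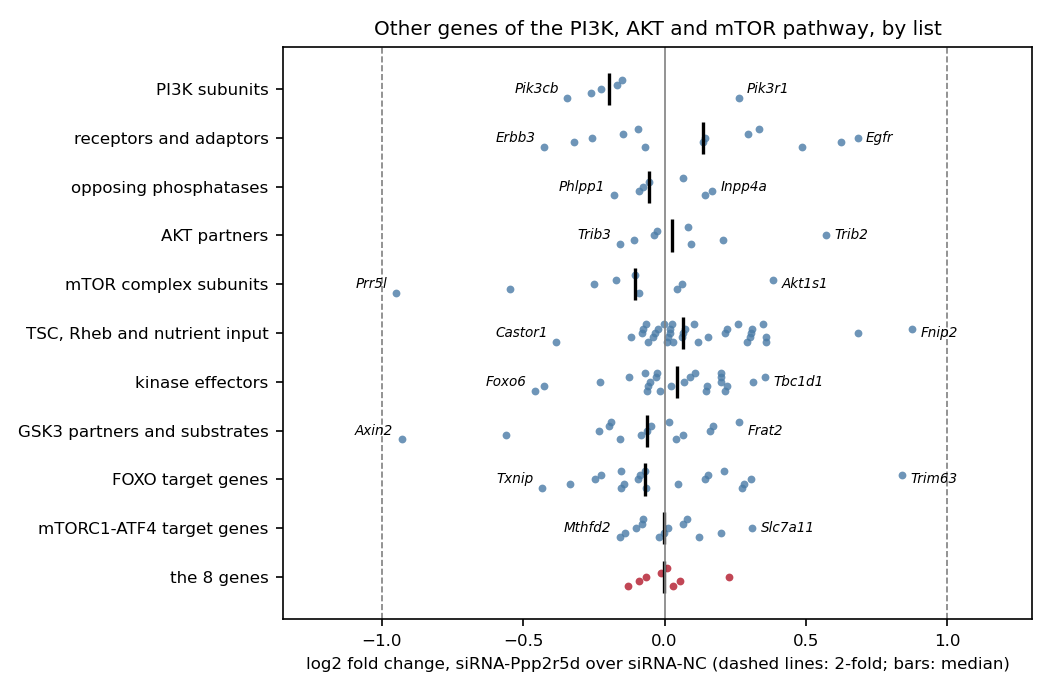
log2 fold change, siRNA-*Ppp2r5d* over siRNA-NC, of the 141 other genes of the pathway measured on both arrays (blue points) by list, with the 8 genes below (red points) and the median of each line as a black bar. A gene that stands in more than 1 list has a point in each. The lowest and the highest gene of each list are named, and all points lie between the dashed lines at 2-fold.

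Downstream, 13 of 24 effectors of the kinases, direct or further down, were above 0 and 11 below. They ran from the transcription factor *Foxo6* at -0.46 to *Tbc1d1*, a regulator of glucose uptake, at 0.36. Of 15 partners and substrates of GSK3, 6 were above 0 and 9 below. *Axin2*, a scaffold that holds GSK3 to β-catenin and is itself a known target of Wnt signalling, was the lowest, at -0.93. One *Axin2* probe went from 518 with siRNA-NC to 308 with siRNA-*Ppp2r5d*, or -0.56, and the other from 71.8 to 25.5, or -1.30. The gene stood at -0.46 with normexp. *Frat2*, which encodes a protein that binds GSK3, was the highest at 0.26. Transcripts known to be driven by FOXO factors had a median of -0.071, with 8 of 19 above 0, against 54.2% of all genes. The sign of this median depended on the processing, at 0.067 when the probe of highest mean signal was taken, 0.069 with RefSeq probes alone, 0.0060 with normexp, 0.0025 at an intensity of at least 100 and -0.28 with scaling to spike-in probes. *Trim63*, a ubiquitin ligase of muscle, was the highest at 0.84, from probes that went from 162 to 236 and from 31.5 to 53.0. Its last probe was not well above background, at 13.8 and 6.73, and letting it in gave 0.28. *Txnip*, an inhibitor of glucose uptake, was the lowest at -0.43, from probes of -0.69 and -0.18, and -0.15 with normexp. The 13 transcripts known to depend on mTOR complex 1 and ATF4 had a median of -0.0027, with 6 above 0 and 7 below, and a median of -0.089 with cyclic loess and -0.22 with scaling to spike-in probes. They ran from *Mthfd2*, an enzyme of mitochondrial folate metabolism, at -0.16 to *Slc7a11*, a cystine transporter, at 0.31 (0.48 without a filter on dim probes).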

How the data were processed

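RNA of MCMs that received siRNA-NC or siRNA-*Ppp2r5d* was hybridized to a one-colour array (Cyanine 3), with 1 array per group. Groups follow the treatment given in the labels. For each array the authors deposited the intensity of every spot from Feature Extraction 10.7.1.1, corrected for background within an array and not normalized between arrays, and a table of log2 values that, set against the intensities, matched a quantile normalization with a median absolute difference of 5.6e-05. The methods name a 2-fold threshold and a t-test, which 1 array per group does not allow.

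From the intensities, log2 values were taken, outlier spots were dropped (126 on the siRNA-NC array, 95 on the other), spots of a probe were averaged, and each array had its 75th percentile subtracted. Of 59305 spots, 35544 and 35174 were well above background. Where a probe was so on 1 array, its value on the other was raised to that array's lowest signal called well above background, 14.9 or 13.5, if it lay under it, for a bound. The number of arrays limits the precision. Probe targets and coordinates of build mm9 are those of the scanner files, and older symbols were matched through a RefSeq gene table. No genome or protein table of build mm9 was used here.

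The 8 genes, the 10 lists and the alternatives were chosen with earlier results of these data known. Besides the 8 genes and *Ppp2r5d*, the rule named the highest and the lowest gene of each list and any past 2-fold. Alternatives were other scalings (quantile, median, cyclic loess, spike-in probes), normexp with an offset of 50, the authors' values, other filters on dim or outlier spots, other rules for several probes, and a 1.5-fold threshold. The steps were tested on simulated data. Scripts ran in Python 3.11.15 (pandas 2.3.3, NumPy 2.4.6, matplotlib 3.10.9), and normexp and cyclic loess in limma 3.58.1 under R 4.3.3.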

Additional observations from a re-analysis of the deposited data

How the results depend on the processing

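No paired analysis was possible because each group had 1 array, and none could be left out. None of the 8 genes was past 2-fold under any of the 12 alternatives, nor at 1.5-fold. Their median of -0.0017 became -0.22 with scaling to 8 spike-in probes, which lowered the median of all genes by the same step, from 0.026 to -0.19, and 0.046 with RefSeq probes alone, a choice made after seeing the data. The median of the pathway genes, 0.017, became -0.020 with quantile normalization and with the authors' log2 values, -0.030 with cyclic loess and -0.20 with spike-in scaling. No pathway gene was past 2-fold except 2 with spike-in scaling, *Axin2* and *Prr5l*, and 1 without a filter on dim probes, *Inpp5d*, while 7 were past 1.5-fold. Of 96 values of single members under an alternative, 71 moved by less than the SD of spots, 0.036, and 16 changed sign. Over all genes, 549 were past 2-fold, 2076 without the filter, 162 at an intensity of at least 100 on both arrays and 112 with normexp.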

Other observations

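The 5 *Lamtor* genes, which encode the complex that anchors mTOR complex 1 to the lysosome, were chosen after their values were seen. All 5 had log2 fold changes above 0, from 0.0072 to 0.36, against 54.2% of all genes measured on both arrays. With cyclic loess 4 were above 0, and with scaling to spike-in probes 3 were, from -0.21 to 0.15.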
